A study of Mus musculus with 2 samples.

Results

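The 37 genes described here are a list of type I interferon response genes, chosen by name from the 33696 mouse genes (GRCm39) counted in 1 library of single-cell RNA from tumour immune cells. All 37 were present and had counts, 838355 UMIs (counted RNA molecules) in all, or 0.761% of the mouse UMIs of the cells used. The CD45+ cells, that is blood-derived immune cells, were sorted from subcutaneous tumours of MC38, a mouse colon carcinoma line implanted at 2000000 cells, in mice with human Fc gamma receptors in every group, of a strain background that the sources used here do not give. The groups were Untreated mice, which the design text calls PBS controls, and mice given 100 µg of a human IgG1 antibody against mouse GITR, a costimulatory receptor of T cells, in 2 injections 3 days apart, with cells taken 4 days after treatment. The antibodies were N297A (an agonist whose Fc part is null), GA-aFuc (an agonist with enhanced Fc part) and GITR/Syn GA-aFuc (a non-agonist with enhanced Fc part). The labels give 3 mice per treatment, and this library held 6 mice by hashtag: Untreated 1 and 2, N297A 1 and 2, and 1 mouse each for GA-aFuc and GITR/Syn GA-aFuc. The cells carry the submitters' names and cluster numbers, which were made from the same cells and genes, so clusters are described below with no test, and p-values between cell types hold only given those names.

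Type I interferons are secreted by cells that sense nucleic acids of viruses or of damaged cells. They bind the receptor made of Ifnar1 and Ifnar2, and the kinases Jak1 and Tyk2 then activate a transcription factor complex with Stat2 and Irf9, which binds the interferon-stimulated response element in promoters. The induced genes encode sensors, nucleotide and RNA enzymes, membrane proteins that hold back virus, the ubiquitin-like modifier Isg15, and the transcription factors Irf7 and Stat2 that renew the response. Tumours can show the same response in the absence of virus, and interferon gamma induces part of these genes too.

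The library gave 8716 cells after matching, 1379 to 1519 per mouse, with 16479710 to 19339165 mouse UMIs per mouse and a median of 11259 to 12940 UMIs per cell. No cell barcode was shared between mice (0 shared), which follows from giving each barcode 1 hashtag and leaving out repeated barcodes. Levels are counts per 1000000 mouse UMIs (CPM) in the summed cells of 1 mouse and type, and SDs are over mice. The marker lists were highest in the deposited type they mark, except that the monocyte and cDC2 lists were highest in pDC and the CD4 T cell list in CD8 T cells. Free RNA, read from 163454 barcodes of 10 to 100 UMIs, had a summed member level of 6736 CPM, close to that of macrophages. CD8 T cells and NK cells lay below it.

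The promoters of the members are shown first because these genes are known for a shared control element. RefSeq windows (build GRCm38.p6, 250 bases before to 50 after the start) matched 27 of the 37 members. The element's core, searched on either strand as GAAA, any 2 bases and GAAA, was in 13 of the 27 (48.1%), against 1079 of 27025 genes with a window (3.99%). Of the 13 members, 11 held it upstream of the start. The longer form with CT after the second GAAA, which contains the core, was in 6 of 27 (22.2%), against 0.303% of genes. These are matches of letters, not measured sites, and the coordinates are of that build, not of the build of the counts. Ifi44, Isg20 and Cmpk2, also named in the results below, had a window without the core. Printed windows run in the direction of the gene, with the core matches in capitals (TTTC, any 2 bases and TTTC is the core on the other strand). Windows of 100 bases are printed for 5 members, all picked from those that hold the core. They are Isg15 at chr4:156200855-156200954 (minus strand, 3 overlapping matches), Ifit1 at chr19:34640734-34640833 (plus strand, 2 matches), Ifit3 at chr19:34583337-34583436 (plus strand, 2 matches), Rsad2 at chr12:26456543-26456642 (minus strand, 1 match) and Bst2 at chr8:71537567-71537666 (minus strand, 2 overlapping matches).
Isg15: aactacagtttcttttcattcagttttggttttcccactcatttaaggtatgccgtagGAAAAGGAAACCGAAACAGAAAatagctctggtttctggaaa
Ifit1: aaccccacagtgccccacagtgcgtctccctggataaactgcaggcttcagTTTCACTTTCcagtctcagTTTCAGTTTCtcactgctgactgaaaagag
Ifit3: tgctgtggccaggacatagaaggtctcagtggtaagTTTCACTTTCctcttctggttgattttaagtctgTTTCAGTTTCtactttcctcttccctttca
Rsad2: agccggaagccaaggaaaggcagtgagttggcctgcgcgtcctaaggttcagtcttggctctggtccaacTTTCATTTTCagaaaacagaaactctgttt
Bst2: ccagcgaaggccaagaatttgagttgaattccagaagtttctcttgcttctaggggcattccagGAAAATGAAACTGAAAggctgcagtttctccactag
The window of Ifit3b, a neighbouring copy of Ifit3 at chr19:34607733-34607832, was identical to that of Ifit3 in 100 of 100 bases. The last 500 bases of the transcripts, where this 3' assay counts, shared no exact 50-base word between Ifit3 and Ifit3b (0). Only these annotated ends were compared, so the search cannot show how well the counts of the copies are separated. For 5 other members 10% or more of these words occurred in another gene: Ifi209 (47.8% with Ifi214), Ifi205 (38.7% with Ifi211), Oas1a (30.2% with Oas1g), Trim30a (18.8% with Trim30d) and Herc6 (15.0% with Gm45193). The levels of these 5 are uncertain to that extent.

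Monocytes had the highest mean summed level of the members, followed by cDC2 (the dendritic cells that chiefly present antigen to CD4 T cells) and macrophages, with CD8 T cells and NK cells well below. In monocytes the sum was 8972 and 11370 CPM in the Untreated mice, 10422 and 12265 CPM in the N297A mice, 10411 CPM in the GA-aFuc mouse and 11667 CPM in the GITR/Syn GA-aFuc mouse. In cDC2 it was 9818 ± 1498 CPM (SD, n = 6 mice) and overlapped with monocytes. Macrophages, at 7409 ± 500.5 CPM, ranged from 6925 to 8024 CPM and lay below every monocyte value. CD8 T cells (3979 ± 225 CPM) and NK cells (2692 ± 281 CPM) did not overlap with each other or with the myeloid types. Smaller types had fewer mice with 10 cells: regulatory T cells were at 6318 ± 1597 CPM (n = 4 mice), CD4 T cells at 4774 ± 1400 CPM (n = 6) and mregDC, mature dendritic cells, at 5691 ± 2543 CPM (n = 3). The 21 pDC, the cells best known for secreting type I interferon, were pooled over mice at 8114 CPM.

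**Figure D1:**
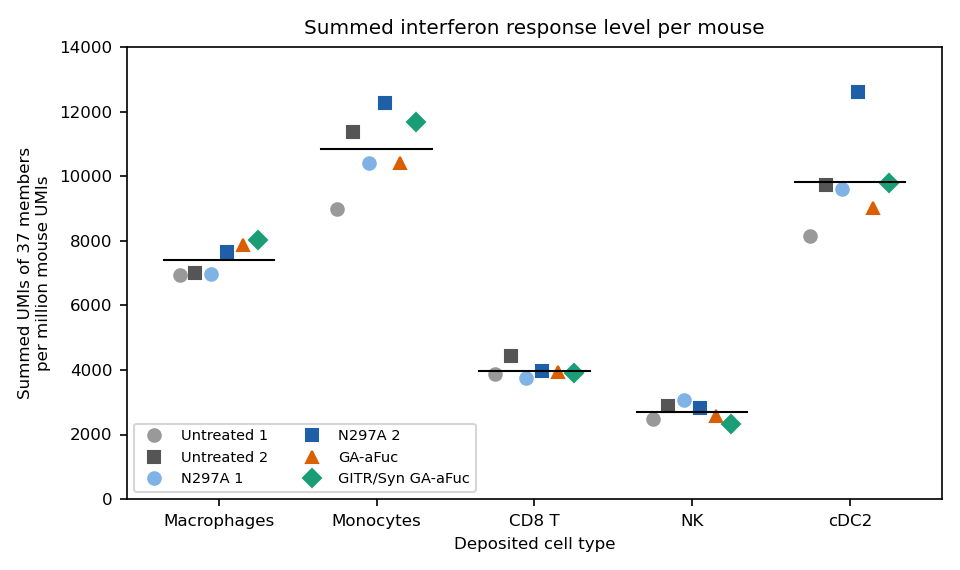
Summed level of the 37 members (CPM of mouse UMIs) by deposited cell type, with 1 symbol per mouse and a line at the mean of the 6 mice. Monocytes reach 12265 CPM and cDC2 12605 CPM, and the NK cell points sit between 2314 and 3074 CPM, under every CD8 T cell point.

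Within a type the cells spread widely: in monocytes the 5th percentile of the summed level was 3214 CPM, the median 8784 CPM and the 95th percentile 29853 CPM. The make-up of the sum differed between types. Bst2, or tetherin, a membrane protein that holds budding virus on the cell, supplied 19.8% of the members' UMIs in macrophages and 45.1% in pDC, for which it is a known surface marker. Isg15 led in monocytes with 12.3%.

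As a share of their UMIs, macrophages had less of nearly every member than monocytes of the same tumours. In counts, macrophages held 475742 member UMIs in 4104 cells and monocytes 269100 in 2486 cells. The lower level is thus one of share, not of UMIs per cell. In the edgeR quasi-likelihood fit over 5 cell types with mouse as a block (Benjamini-Hochberg adjustment over 10314 genes, threshold 0.05), 35 members were lower in macrophages and 2 higher, where 30.7% of all genes tested were called lower and 24.5% higher. The median log2 difference was -0.69 over members and -0.03 over all genes. Of the members, 33 were lower in 6 of 6 mice, a count for which the share of all genes was not worked out. All 9 functional groups had a negative median, from -0.48 for RNA sensors (Ifih1, Dhx58, Eif2ak2, Zbp1; all 4 lower) and ADP-ribosylation enzymes (Parp9, Dtx3l, Parp14; all 3 lower) to -1.23 for the Ifi204, Ifi205 and Ifi209 family of DNA sensors (all 3 lower).

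The members that differed most between the types encode a DNA sensor, an RNA-degrading exonuclease and a nucleotide enzyme. Ifi205 had 47.3 to 60.9 CPM in macrophages and 227 to 306 CPM in monocytes (log2 difference -2.40, SE 0.16, adjusted p = 9.29e-12). Isg20, which degrades RNA from the 3' end, was at 45.3 ± 6.45 CPM in macrophages and 154 ± 36.2 CPM in monocytes (n = 6 each; log2 difference -1.90, SE 0.09, adjusted p = 8.59e-20 in the same edgeR fit). Rsad2 encodes viperin, which makes a chain-terminating nucleotide against viral polymerases. Its level in monocytes was 361 and 594 CPM in the Untreated mice, 624 and 743 CPM in the N297A mice, 574 CPM in the GA-aFuc mouse and 820 CPM in the GITR/Syn GA-aFuc mouse. In macrophages, in the same order, it was 159, 177, 239, 186, 287 and 302 CPM (log2 difference -1.57, SE 0.20, adjusted p = 7.84e-07). No macrophage value reached the lowest monocyte value for any of these 3 genes. Bst2 and Ifi44 went the other way. Bst2 was at 1470 ± 111 CPM in macrophages and 1123 ± 140 CPM in monocytes (log2 difference 0.26, SE 0.06, adjusted p = 0.000641). Ifi44, an interferon-induced gene of less defined function, was at 112 ± 14.0 and 81.4 ± 21.8 CPM (log2 difference 0.35, SE 0.10, adjusted p = 0.00501). Each was higher in the macrophages of 6 of 6 mice.

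The cDC2 shared much of the monocyte level and differed in single genes. Other dendritic cells, pooled over mice, were lower in sum, at 5459 CPM in 47 cDC1 and 6446 CPM in 57 mregDC. In cDC2 against monocytes 9 members were higher, 13 lower and 15 did not pass, with 15.8% of all genes called higher and 22.8% lower. The median over members was -0.15, beside -0.10 over all genes. The higher members included Ifi205 (538 ± 83.4 against 266 ± 26.2 CPM; log2 difference 0.99, SE 0.17, adjusted p = 4.19e-05 by edgeR, n = 6 mice), Ifi44 (log2 difference 0.80, adjusted p = 0.000106) and Isg20 (log2 difference 0.76, adjusted p = 2.92e-07). Rsad2 and its genomic neighbour Cmpk2, a mitochondrial nucleotide kinase, were lower. Cmpk2 had 6.83 to 36.2 CPM in cDC2 and 33.6 to 74.5 CPM in monocytes (log2 difference -2.03, SE 0.35, adjusted p = 3.85e-05). It was lower in 6 of 6 mice, although the ranges overlap. Rsad2 was at 222 ± 109 CPM in cDC2 (log2 difference -1.47, SE 0.25, adjusted p = 4.84e-05). Oas3, an oligoadenylate synthase that activates RNase L, was lower by the same test (log2 difference -1.03, adjusted p = 3.24e-09). With every gene of at least 1 UMI in the fit, 5 members were higher and 19 lower, and the median over all genes moved to -0.30. Of the 22 calls, 13 held in every setting tried.

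CD8 T cells carried the response at a lower level than monocytes, and unevenly. Against monocytes 36 members were lower in CD8 T cells, with 37.9% of all genes called lower, and 1 was higher, with 36.3% called higher. That member was Isg20, at 252 and 269 CPM in the Untreated CD8 T cells, 258 and 237 CPM in N297A, 256 CPM in GA-aFuc and 308 CPM in GITR/Syn GA-aFuc (log2 difference 0.61, SE 0.09, adjusted p = 1.59e-07 by edgeR). The lowest of these lies above the highest monocyte value, 203 CPM. The steepest differences were in the DNA sensor family and the oligoadenylate synthase family, whose medians over members were -4.09 and -3.45. Oasl2 was at 26.1 ± 5.74 CPM in CD8 T cells and 352 ± 33.8 CPM in monocytes (log2 difference -3.95, SE 0.13, adjusted p = 4.22e-25). Oasl1, known to restrain Irf7 translation, was at 26.4 ± 12.2 and 302 ± 51.8 CPM (log2 difference -3.78, SE 0.17, adjusted p = 2.04e-16). The ADP-ribosylation enzymes Parp9, Dtx3l and Parp14 had the group median nearest to no difference, -0.78. The median of Isg15 and its partners Usp18 and Herc6 followed at -0.81, but Isg15 itself was at -2.03, Usp18 at -0.81 and Herc6 at -0.62.

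NK cells had the lowest level of 30 of the 37 members among the 5 types. Against CD8 T cells 26 members were lower in NK cells and 3 higher, with 15.4% of all genes called lower and 15.2% higher, and 8 did not pass. The IFIT proteins, which bind the ends of foreign RNA, were all lower in NK cells, 4 of 4, with a median of -1.74. Ifit3 was at 30.4 ± 12.3 CPM in NK cells and 109 ± 17.2 CPM in CD8 T cells (log2 difference -1.79, SE 0.18, adjusted p = 3.29e-09). Ifit1 was at 37.6 ± 21.5 and 121 ± 20.3 CPM (log2 difference -1.68, SE 0.23, adjusted p = 5.26e-06).

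Ifi44 was the clearest gene of the opposite direction. In NK cells it had 59.5 and 49.3 CPM in the Untreated mice, 55.1 and 59.6 CPM in N297A, 65.2 CPM in GA-aFuc and 36.8 CPM in GITR/Syn GA-aFuc. In CD8 T cells the values in the same order were 4.95, 10.4, 8.17, 4.70, 12.7 and 6.29 CPM. The 2 types did not overlap (log2 difference 2.88, SE 0.25, adjusted p = 8.42e-11 by edgeR). Oasl1 (log2 difference 0.82, adjusted p = 0.00915, higher in 4 of 6 mice) and Ifi204 (log2 difference 0.57, adjusted p = 0.029, higher in 5 of 6 mice) were the other 2. Without the N297A 1 mouse only Ifi44 of the 3 was higher (1 member). Of the 29 calls, 22 held in every setting.

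Myeloid RNA was present in both lymphocyte types. Across 9 myeloid genes CD8 T cells held 4.72% and NK cells 3.44% of the level of macrophages and monocytes. At or within 2 times that share were Ifi204 (8.83%), Ifi205 (8.43%) and Ifi44 (7.49%) in CD8 T cells, and Ifi205 (3.28%), Oas2 (4.22%) and Ifit3b (6.79%) in NK cells. Their levels in those lymphocytes are within reach of that background, and the lymphocytes' own part was not tested.

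No member met the rule for a gene limited to 1 cell type, a mean at least 4 times that of each of the other 4 types (0 of 37). The nearest was Rsad2, at 2.75 times more in monocytes than in macrophages, its second type. Monocytes had the highest mean for 22 members, cDC2 for 14 and macrophages for 1, Bst2. The members reached low levels in different types instead. The mean of Ifi205 ran from 538 CPM in cDC2 to 3.71 ± 1.61 CPM in NK cells, a 145-fold range, and Oas2 spanned 27.7-fold from monocytes to NK cells. Ifi44 spanned 18.0-fold from cDC2 to CD8 T cells. Samd9l (1.55-fold), Trim30a (1.74-fold) and Helz2 (1.80-fold) were the most even over the 5 types. Isg20 was at similar means in cDC2 (264 CPM) and CD8 T cells (263 CPM) and lowest in macrophages, one of 3 members with their lowest mean there.

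**Figure D2:**
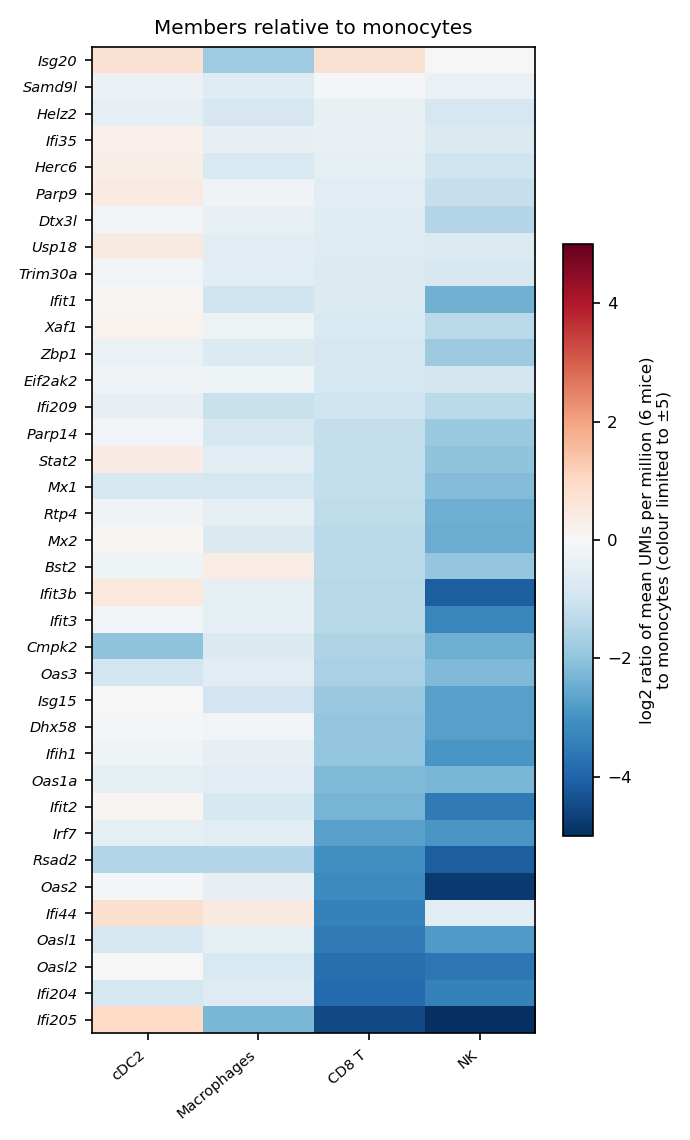
Log2 ratio of each member's mean level to its mean in monocytes over 6 mice, for cDC2, macrophages, CD8 T cells and NK cells, with the colour limited to 5 in either direction. Isg20 and Ifi44 stand out against the general order: Isg20 is above monocytes in CD8 T cells (263 against 154 CPM), and Ifi44 is at 112 CPM in macrophages and 7.88 CPM in CD8 T cells.

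The receptor and its signalling genes did not follow the members in every type. Of 6 such genes, 5 were lower in macrophages than in monocytes and 0 higher. In CD8 T cells Jak1 was higher than in monocytes (log2 difference 1.01, adjusted p = 8.15e-18 by edgeR), and Ifnar2 (-2.67, adjusted p = 7.97e-24) and Ifnar1 (-0.52) were lower. Between NK and CD8 T cells Jak1 and Ifnar2 were higher in NK cells, and Irf9 (log2 difference -0.66, adjusted p = 7.51e-07) was lower. Among 24 further interferon-induced genes, 21 were lower and 1 higher in macrophages than in monocytes, and 13 were lower and 2 higher in NK than in CD8 T cells. Of 17 genes induced mainly by interferon gamma, 16 were tested. They were lower in macrophages than in monocytes for 15 and higher for 0, so that list and the members moved alike in this comparison.

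A small number of clusters carried the highest levels within each type. These, and the lowest clusters, were picked by their summed level. Counts of members higher or lower in them therefore follow in part from that choice. Among monocytes, cluster 49 (84 cells) had 33352 ± 4173 CPM (SD, n = 5 mice with at least 10 cells), cluster 21 (172 cells) 24806 ± 2230 CPM (n = 6) and cluster 27 (186 cells) 19244 ± 4269 CPM (n = 6). These 3 clusters held 442 of 2486 monocytes (17.8%) and 35.5% of the members' UMIs in monocytes. Among macrophages cluster 3 (253 cells, 6.16% of the type) had 18975 ± 1412 CPM and 15.0% of the members' UMIs. Its lowest mouse, 16546 CPM, was above every mouse of the next macrophage cluster, number 24, whose highest was 9903 CPM. CD8 T cells of cluster 23 (151 cells) had 7981 ± 987 CPM, beside 3482 CPM in the other CD8 T cells. NK cells of cluster 19 had 4243 ± 1219 CPM, and cDC2 of cluster 36 had 11532 ± 1445 CPM (n = 5). Within CD8 T cells the 6 mice of cluster 23 ran from 6815 to 9244 CPM.

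**Figure D3:**
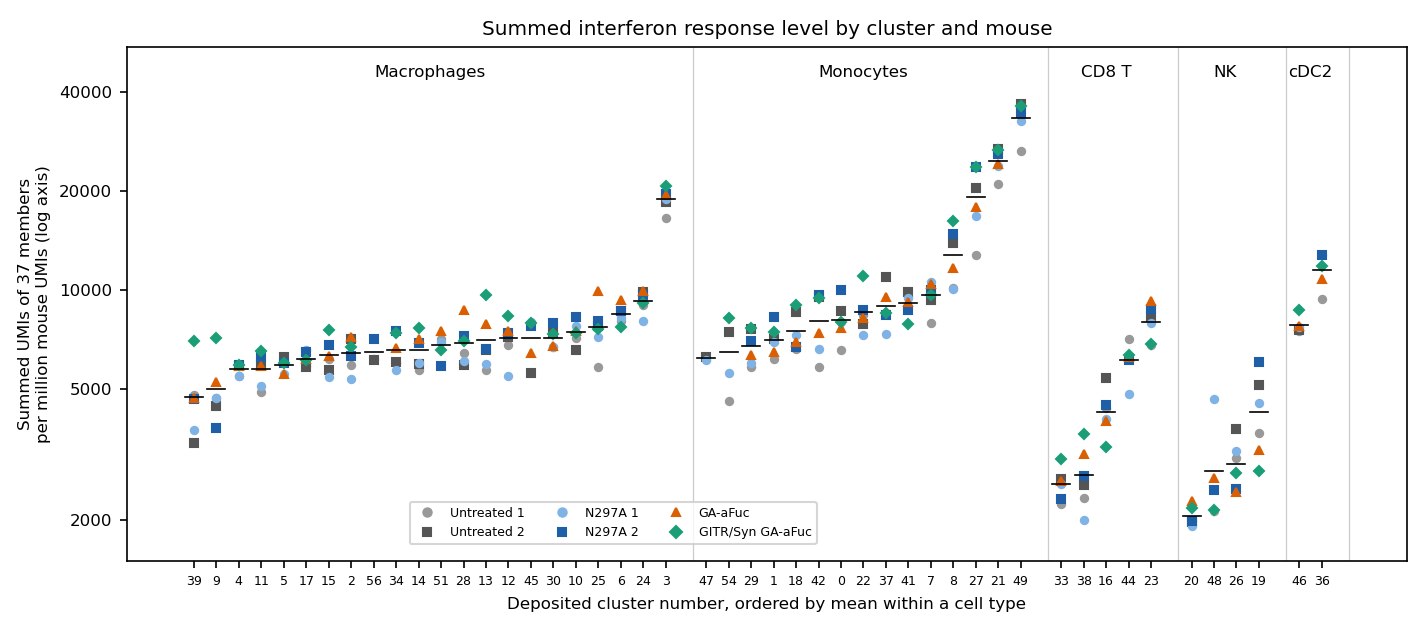
Summed level of the 37 members (CPM) in each deposited cluster of the 5 larger cell types, on a log axis, with 1 symbol per mouse of at least 10 cells and a line at their mean. Macrophage cluster 3 (16546 to 20755 CPM) lies apart from the other macrophage clusters. Monocyte clusters 49 and 21 have the highest means of their type, while monocyte cluster 27 (12766 to 23785 CPM) overlaps with cluster 8.

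In macrophage cluster 3 the whole list stood above the other macrophages: 37 of 37 members had a higher level, 30 of them at least 2-fold, and all 37 in 6 of 6 mice. Ifit3b was at 268 CPM against 28.1 CPM in the other macrophages (9.53-fold), with mice from 223 to 375 CPM. Rsad2 was at 1407 against 151 CPM (9.31-fold) and Isg15 at 2118 against 589 CPM (3.595-fold). Bst2 differed least, at 2029 against 1434 CPM (1.41-fold). Beyond the members, all of the 24 further interferon-induced genes were higher in this cluster (13 at least 2-fold), and so were 15 of 16 measured interferon gamma genes (5 at least 2-fold). Its leading genes outside the members were A330040F15Rik (5.61-fold) and Cxcl10, a chemokine for T cells, at 2391 against 510 CPM (4.69-fold). The 6 receptor and signalling genes had a median ratio of 1.15. The share of macrophages in cluster 3 was 6.68% and 4.78% in the Untreated mice, 6.85% and 6.30% in the N297A mice, 6.57% in the GA-aFuc mouse and 5.89% in the GITR/Syn GA-aFuc mouse, so the shares overlapped between treatments.

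The 3 monocyte clusters differed from one another. In cluster 21 all 37 members were above the other monocytes in 6 of 6 mice, 22 at least 2-fold, led by Ifit3b (300 against 39.9 CPM, 7.52-fold) and Mx1, a dynamin-like GTPase (5.12-fold). In cluster 49 all 37 were higher and 32 at least 2-fold. Its leaders were Cmpk2 (10.6-fold) and Rsad2, at 4516 against 504 CPM (8.96-fold), and its monocyte marker genes were higher as well, 7 of 7. Ifi44 was higher there in only 2 of 5 mice (1.66-fold). Cluster 27 had a partial pattern: 35 members were higher, 14 at least 2-fold and 27 in 6 of 6 mice. Cmpk2 (3.73-fold), Rsad2 (3.71-fold) and Ifi205 (802 against 229 CPM) led, and Irf7 was at the level of the other monocytes (795 against 784 CPM). Bst2 (568 against 1162 CPM) and Ifi44 (41.9 against 82.0 CPM) were lower in 6 of 6 mice. The genes that led cluster 27 outside the members were haemoglobin genes, with Hbb-bs at 1175 CPM against 1.68 CPM elsewhere, and genes of young monocytes such as Vcan (8.28-fold), Hp and Chil3. Macrophage markers were lower in this cluster in 8 of 8 genes, at 0.162 of the summed level of the other monocytes. Haemoglobin RNA marks red blood cells or their RNA, and its part in the member levels was not tested.

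**Figure D4:**
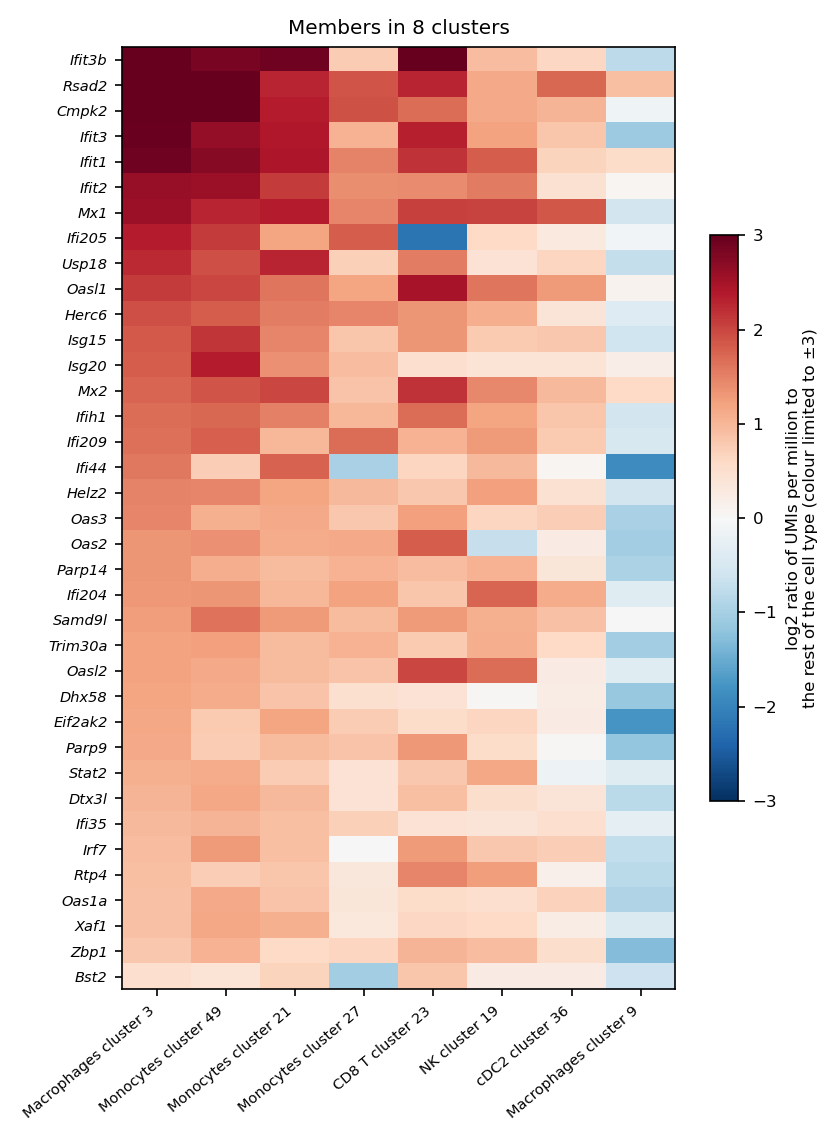
Log2 ratio of each member in 8 clusters to the other cells of the same type, with the colour limited to 3 in either direction. Macrophage cluster 3 and monocyte clusters 21 and 49 are above the other cells for all 37 members, while in monocyte cluster 27 Bst2 (0.488-fold) and Ifi44 (0.511-fold) are below.

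Among lymphocytes, CD8 cluster 23 had 36 of 37 members above the other CD8 T cells and 22 at least 2-fold, with 28 higher in 6 of 6 mice. Ifit3b was at 98.9 against 12.5 CPM (7.94-fold), Oasl1 was 5.52-fold higher and Ifit3 was at 380 against 75.9 CPM. The exception was Ifi205, on 2 UMIs in the cluster. The genes that led this cluster outside the members were Klra1 and Tcf7 (32.8-fold), the latter a transcription factor of naive and memory T cells, and Cxcr3. Lineage markers differed too: NK cell markers were higher in 4 of 5 genes (median 3.31-fold), and CD8 T cell markers in 0 of 5, at 0.637 of the summed level of the other CD8 T cells. The part of this in the member levels was not tested. Its cells had a median of 5242 UMIs, and 9 myeloid genes stood at 5.24% of their myeloid level, beside 4.72% in all CD8 T cells. CD8 cluster 44 (6134 ± 830 CPM, n = 5 mice) also had 37 of 37 members higher, 8 at least 2-fold and 16 in 5 of 5 mice. But its myeloid share was 9.92% and its leading genes included Lyz2 (4.80-fold) and Ccl2. The part of myeloid RNA in that level was not tested. CD8 clusters 33 and 38 were lowest, with 0 of 37 members above the other CD8 T cells. Cluster 33 (2570 ± 296 CPM) was led by the granzyme genes Gzme, Gzmd and Gzmc of cytotoxic granules. In NK cluster 19, 36 members were higher in the pooled cells, 19 at least 2-fold, but only 17 in 6 of 6 mice. Mx1 led (83.2 against 20.5 CPM, 4.05-fold), and NK cluster 20 was lowest at 2046 ± 142 CPM. In cDC2 cluster 36, 36 members were higher in the pooled cells, but only 11 in 5 of 5 mice. Only 5 were at least 2-fold higher, among them Mx1 (3.62-fold) and Rsad2 (3.28-fold). That cluster also held more of Ly6c2 (5.48-fold), Ccr2 and Lyz2 than the other cDC2, genes also used by monocytes. Macrophage markers were higher there in 8 of 8 genes (median 4.24-fold), monocyte markers in 5 of 7 and mregDC markers in 4 of 5 (196 against 15.0 CPM in sum), and their part in the member levels was not tested.

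At the other end, macrophage clusters 39 (4712 ± 1250 CPM) and 9 (4995 ± 1148 CPM) were lowest in their type, and both were rich in Hmox1, the haem-degrading enzyme, and Mmp12, a matrix protease. Monocyte clusters 47 (6189 CPM, n = 2 mice), 54 (6461 ± 1661 CPM, n = 4) and 29 (6736 ± 803 CPM, n = 6) were lowest among monocytes. In monocyte cluster 29 Cmpk2 was at 0.067 of its level in the other monocytes. The members moved together over clusters, as a description without test. Over 15 monocyte clusters the Spearman correlation of a member with the sum of the others had a median of 0.825, and over 22 macrophage clusters 0.636. The least aligned were Bst2 in monocytes (0.254) and Samd9l in macrophages (0.226), and clusters share library and depth. Members with the promoter core (13) had a median ratio of 3.20 in macrophage cluster 3, beside 2.91 for the 14 without it, and in monocyte cluster 21 the values were 2.28 and 2.35.

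Interferon transcripts themselves were rare. Of 18 type I interferon genes 3 had any UMI: Ifnb1 had 175 UMIs in 20 cells, Ifna16 1 and Ifnk 1. Macrophages held 171 of the Ifnb1 UMIs in 17 cells, and 163 of them were in cluster 9, one of the lowest clusters for the members. By mouse cluster 9 had 4 and 0 Ifnb1 UMIs in Untreated, 14 and 18 in N297A, 5 in GA-aFuc and 122 in GITR/Syn GA-aFuc, of which 91 were in a single cell. The edgeR test called Ifnb1 higher in macrophages of the GITR/Syn GA-aFuc mouse than in Untreated (log2 change 4.998, adjusted p = 0.0198), and this value rests on that 1 mouse and chiefly on that 1 cell.

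The 9 cells of cluster 9 that held Ifnb1, a group chosen after its values were seen, had 18645 CPM of the members, beside 4676 CPM in the other 218 cells of the cluster. Without the cell with the most Ifnb1 the value was 17136 CPM. In each of the 5 mice with such cells (1 cell each in Untreated 1, N297A 1 and N297A 2, 2 cells in GA-aFuc and 4 in GITR/Syn GA-aFuc) they lay above the other cells of the cluster: 18326 against 3703 CPM in Untreated 1, 18157 against 3703 CPM in N297A 1, 28777 against 3393 CPM in N297A 2, 14789 against 4892 CPM in GA-aFuc and 19737 against 6261 CPM in GITR/Syn GA-aFuc. The 8 macrophages of other clusters with Ifnb1 had 12664 CPM, beside 7506 CPM in all 3877 macrophages outside cluster 9, which include these 8. The pattern was uneven over members, with 27 of 37 higher and 19 at least 2-fold. Ifit2 (37.1-fold), Ifit1 (34.97-fold), Ifit3b (19.5-fold) and Ifih1, which encodes the RNA sensor MDA5 (14.4-fold), led. Rsad2 was at 2988 against 299 CPM (10.0-fold). Irf7 (0.642-fold) and Bst2 (0.452-fold) were lower in these 9 cells. Without them Rsad2 in cluster 9 was 1.38 times that in the other macrophages, Mx2 1.21 and Isg20 1.19, and the other 34 members lay below them.

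Between treatments 1 member passed the threshold in the main edgeR fits, in 1 cell type. Fits of so few mice cannot show that the others were unchanged. The 3 antibodies were each compared with the same 2 Untreated mice, so these comparisons share their controls. In separate edgeR fits for the 5 types, with 182 tests of members in each comparison, 0 members were called for N297A (0.01% of all tests were called), 1 for GA-aFuc (0.0863%), 0 for GITR/Syn GA-aFuc (0.106%) and 0 for GA-aFuc minus N297A (0.0421%). At an unadjusted p under 0.05 the counts were 19, 13, 24 and 14 of 182, with 3.53%, 5.12%, 5.61% and 3.78% of all tests there. In each comparison this was a larger share of the members than of all tests, a difference that was not tested. DESeq2 called 0 members in each comparison, and limma-voom called 0, 1, 0 and 0. The NK fit tested 34 members, as Ifi205, Ifit3b and Oas2 did not pass the filter on low counts, and the other fits tested all 37. The fits left 2 residual degrees of freedom, and the single mouse of a group was assumed to vary like the others.

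The 1 call was Ifi44 in monocytes. Its level was 57.6 and 59.9 CPM in the Untreated mice, 92.1 and 90.3 CPM in the N297A mice, 114 CPM in the GA-aFuc mouse and 74.1 CPM in the GITR/Syn GA-aFuc mouse. Both Untreated values were below every antibody-treated mouse. The log2 change was 0.95 for GA-aFuc (SE 0.12, adjusted p = 0.0194 by edgeR, where 0.166% of all genes were called higher), 1 mouse against 2. The call did not hold with DESeq2 (adjusted p = 0.0869), and with each of the other 5 mice left out in turn the adjusted p was 0.0146 to 0.0319. The GA-aFuc mouse itself could not be left out. For N297A the log2 change was 0.66 (SE 0.10, adjusted p = 0.171), which did not pass.

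In macrophages the median log2 change over the 37 members was 0.10 for N297A (28 positive), 0.23 for GA-aFuc (31 positive) and 0.23 for GITR/Syn GA-aFuc (33 positive), with medians of all genes at 0.00 to -0.01. Rsad2 had its 2 highest levels in the Fc-enhanced antibody mice, 287 CPM in GA-aFuc and 302 CPM in GITR/Syn GA-aFuc, and its 2 lowest in the Untreated mice, 159 and 177 CPM. The log2 changes were 0.74 (SE 0.16) and 0.83 (SE 0.16), and neither passed (adjusted p = 0.845 and 0.648). Ifit1 was at 83.3 and 83.8 CPM in the Untreated mice, 102 and 95.1 CPM in N297A, 107 CPM in GA-aFuc and 125 CPM in GITR/Syn GA-aFuc (log2 change of the last 0.57, adjusted p = 0.648). Without the N297A 1 mouse the log2 changes of Rsad2 were 0.74 for GA-aFuc and 0.83 for GITR/Syn GA-aFuc, and that of Ifit1 was 0.57 for GITR/Syn GA-aFuc. Whether these changes passed depended on the setting. In the main edgeR fit they did not, and with no filter on low counts they did. The N297A median of macrophages was -0.01 without the N297A 2 mouse.

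In monocytes the medians were 0.18 for N297A (36 of 37 positive), 0.09 for GA-aFuc (25 positive) and 0.23 for GITR/Syn GA-aFuc (33 positive). They changed with the Untreated 1 mouse, whose summed level was the lowest of the 6 and which was lowest in 8 of the 11 monocyte clusters with 6 mice. Without it the medians were 0.05, -0.10 and 0.02, and without Untreated 2 they were 0.33, 0.27 and 0.38. Oasl1 was at 238 and 267 CPM in the Untreated mice, 291 and 374 CPM in N297A, 290 CPM in GA-aFuc and 353 CPM in GITR/Syn GA-aFuc, with the Untreated mice below the other 4. The lowest adjusted p of the 3 comparisons was 0.524 (GITR/Syn GA-aFuc, log2 change 0.50). Cluster shares also differed between mice. With the same cluster shares given to every mouse the SD of the summed monocyte level was 1183 CPM, beside 1170 CPM observed, and with each mouse's own shares at pooled cluster levels it was 294 CPM.

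In all dendritic cells together the summed level was 7201 and 7222 CPM in the Untreated mice, 8117 and 11165 CPM in N297A, 7966 CPM in GA-aFuc and 8286 CPM in GITR/Syn GA-aFuc. Both N297A mice were above both Untreated mice, and N297A 2 alone was above all the others. The make-up of these cells differed as well: mregDC were 12 of 45 and 13 of 52 cells in the Untreated mice and 7 of 66 and 6 of 51 in N297A, and 7 of the 51 cells of N297A 2 were pDC. The part of make-up in the changes was not tested. The median log2 change for N297A was 0.41 with 34 of 37 members positive, and 12 of 37 had an unadjusted p under 0.05, where 5.93% of all genes did. None passed the adjustment in the main edgeR fit (0 called, where 0.302% of genes were called), and the lowest adjusted p was 0.101. This depended on the setting. With no filter on low counts Rsad2, Mx2, Ifit2, Ifit1 and Usp18 passed in edgeR (adjusted p 0.00172 to 0.0351). Without the top 5% of cells by UMIs Ifit2 passed (adjusted p = 0.0122). Rsad2 was at 76.7 and 148 CPM in the Untreated mice, 252 and 239 CPM in N297A, 92.4 CPM in GA-aFuc and 186 CPM in GITR/Syn GA-aFuc (log2 change 1.12, SE 0.27). Single cells weighed on these values. In the cDC2 the top cell held 6 of 20 and 57 of 84 Rsad2 UMIs in Untreated 1 and 2. In N297A 1 and 2 it held 73 of 219 and 29 of 95. Ifit1 was at 63.9 and 132 CPM in Untreated and 185 and 193 CPM in N297A. Usp18, which removes Isg15 from proteins, was at 87.7 and 109 CPM in Untreated and 149 and 233 CPM in N297A. For Rsad2, Ifit1 and Usp18 the N297A mice lay above both Untreated mice. The median was 0.18 without the N297A 2 mouse and 0.66 without N297A 1. The fit without N297A 1 left N297A 2 as the only mouse of its group. In it the log2 change was 1.09 for Rsad2 and 1.25 for Usp18. In cDC2 alone the median was 0.30, 0.04 without N297A 2. Cluster 36, the higher of the cDC2 clusters for the members, held 53.8% and 33.3% of the cDC2 in the Untreated mice and 55.3% and 68.8% in N297A.

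In CD8 T cells the medians were -0.07, -0.04 and -0.12 for the 3 antibodies, and the first 2 turned to 0.02 and 0.06 without Untreated 2. That mouse had the highest Ifi205, 41.7 CPM beside 2.82 to 9.36 CPM in the others, with 21 of its 36 UMIs in 1 cell. In NK cells the medians were 0.10, -0.05 and -0.23. Without Untreated 2 they were 0.22, 0.11 and -0.09, and without Untreated 1 they were 0.02, -0.13 and -0.38. Without N297A 2 the first was 0.20. Ifi204 in NK cells was at 26.98 CPM in the GITR/Syn GA-aFuc mouse and 61.4 to 82.6 CPM in the other 5 (log2 change against Untreated -1.32, SE 0.33, adjusted p = 0.379). The same NK sample, of 74 cells, had the lowest myeloid RNA of the 6, 524 CPM over 9 genes beside 610 to 1128 CPM, and the part of this in Ifi204 was not tested.

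**Figure D5:**
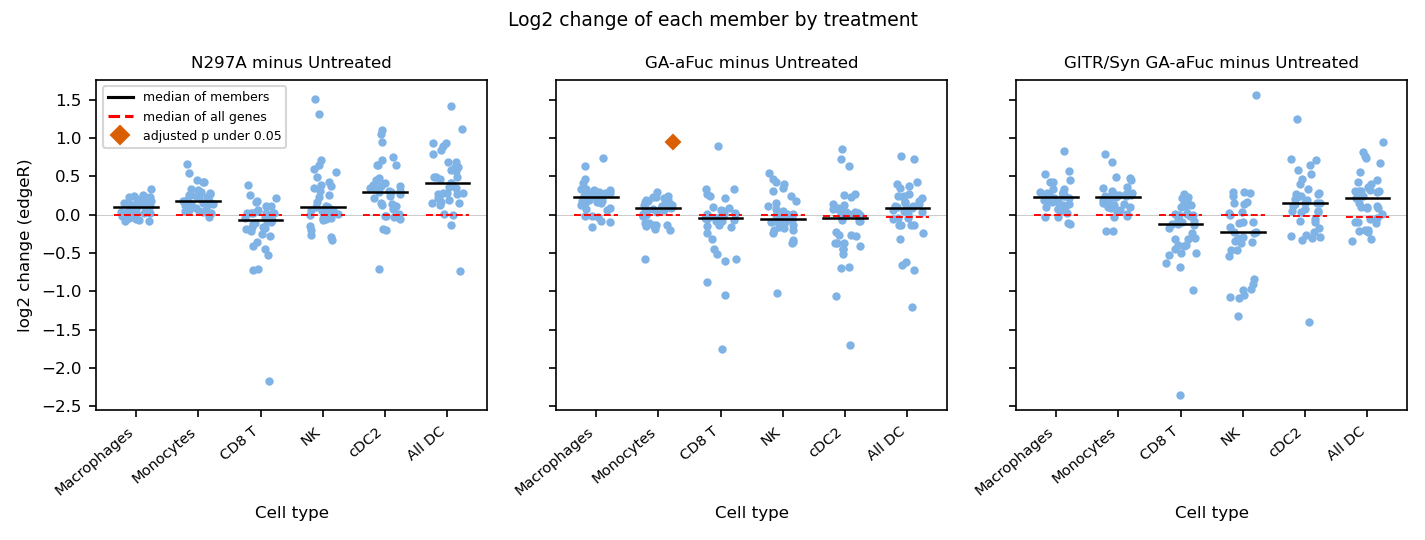
Log2 change of each member (points) between treatments in each cell type, with the members' median as a black line, the median of all genes tested as a dashed red line and the member with adjusted p under 0.05 as an orange diamond. Ifi44 in monocytes of the GA-aFuc mouse (log2 change 0.95) is the 1 diamond.

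Among the interferon pathway genes outside the members, calls between treatments were few and concerned interferon gamma genes besides Ifnb1. Nos2, the inducible nitric oxide synthase, rose in monocytes of the GA-aFuc mouse (log2 change 2.08, SE 0.17, adjusted p = 0.0011 by edgeR) and of the GITR/Syn GA-aFuc mouse (1.53, SE 0.17, adjusted p = 0.0132). Cd274, the checkpoint ligand PD-L1, rose in monocytes of the GA-aFuc mouse (0.83, adjusted p = 0.0353). Cxcl9, a chemokine for T cells, rose in cDC2 of the N297A mice (1.35, SE 0.20, adjusted p = 0.00124). It fell in CD8 T cells with each antibody (-1.21 for N297A, -1.85 for GA-aFuc, -1.49 for GITR/Syn GA-aFuc), where 9 myeloid genes summed to 922 to 1453 CPM by mouse, and the part of myeloid RNA in this was not tested. The 6 receptor and signalling genes had 0 calls in any type and comparison.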

How the data were processed

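RNA of CD45+ tumour cells was sequenced as 1 library with hashtag antibodies, and the deposited files hold raw UMI counts per gene and barcode, made with Cell Ranger 9.0.0 on a combined human and mouse reference, per the submitters' processing notes and the file headers. The authors' deposited table gives the treatment, cell type and cluster of 19210 entries. Here the 8767 entries matched at 1000 or more mouse UMIs were kept, less 33 with the hashtag of another treatment and 18 with a repeated barcode, leaving 8716 cells. The top hashtag (median 96.2% of hashtag counts) was taken as the mouse, which is an inference, and replicate numbers only name mice. No doublet caller was run.

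Counts were summed per mouse and type. edgeR 4.0.16 (TMM, filterByExpr, robust quasi-likelihood F test, Benjamini-Hochberg) was used for all genes, with mouse as a block between types, since types share mice. limma 3.58.1 (voom) and DESeq2 1.42.0 were alternatives, with no filter, each mouse left out in turn, and no block. A cluster value needed 10 cells per mouse, and intervals between mice measure the spread of these 6 mice. Counts of members higher or lower in every mouse, or higher in a cluster, were not set beside the share of all genes.

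All 37 members are accounted for. The rule for named genes was every call between treatments, up to 4 large changes per type and comparison (of which part is printed), and the 4 largest differences each way between types. The members and lists were chosen with earlier results of these data known.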

Additional observations from a re-analysis of the deposited data

Results flagged for a closer look

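Of 54 groups of mice tested for a value far from the rest, of which chance gives about 1 in 20, 4 had one. The summed member level of CD8 T cells was 4416 CPM in Untreated 2, above the other 5 mice. In cDC2 it was 12605 CPM in N297A 2. In NK cluster 48 it was 4649 CPM in N297A 1, and in cDC2 cluster 46 it was 8675 CPM in the GITR/Syn GA-aFuc mouse.

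The GITR/Syn GA-aFuc mouse lay above the mean of the Untreated mice by 1056 CPM in macrophages, 1496 CPM in monocytes, and in cDC2 by 864 CPM. It lay below it in NK cells, where the difference was -376 CPM. In CD8 T cells it was at 3897 CPM, between the Untreated mice at 3888 and 4416 CPM. These opposite directions were not tested, and they rest on 1 mouse.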

How the results depend on the processing

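With no filter on low counts the members called over the 5 types were 3 for N297A, 3 for GA-aFuc, 6 for GITR/Syn GA-aFuc and 1 for GA-aFuc minus N297A, and 5 were higher in cDC2 than in monocytes. The share of all genes called was worked out for the main setting only. Counts under other settings therefore cannot be set against it. DESeq2 called 0 for GA-aFuc. With each mouse left out in turn, where both groups still held a mouse, the treatment calls were 0 to 1, 1 to 2, 0 to 2 and 0 to 0 in the same order, and the members higher in NK than CD8 T cells were 1 to 3. The macrophage median was -0.0077 to 0.142 for N297A and 0.0637 to 0.196 for GA-aFuc minus N297A, and the dendritic cell median for the latter was -0.558 to -0.0528. Without Bst2, the member with the most UMIs, the log2 ratio of the summed level of macrophages to monocytes was -0.71, beside -0.55 with it. Without the replicate block for mouse the members higher and lower were 2 and 35 for macrophages minus monocytes, 3 and 26 for NK minus CD8 T cells, 8 and 13 for cDC2 minus monocytes, and 1 and 36 for CD8 T cells minus monocytes. Without CD8 cluster 44, an alternative chosen after seeing the data, NK minus CD8 T cells gave 3 and 22. The causes were not tested. Between treatments no paired analysis was possible because each mouse had 1 treatment and the numbers pair no animals. A group of 1 mouse limits every treatment value for GA-aFuc and GITR/Syn GA-aFuc.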
